A study of Homo sapiens with 3 samples.

Results

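The 1597 windows described here hold the distant contacts that a captured region of the long arm of chromosome 16 made along its own chromosome in 2 breast cancer lines and 1 lymphoblastoid line. Contacts were counted by capture Hi-C, which fixes nuclei, cuts the DNA with HindIII, ligates ends that lie close together and pulls out, with hybridisation probes, the ligation products of a chosen region. The captured region ran from 73599933 to 74183980 on chromosome 16 (GRCh37) and held 190 HindIII fragments, whose contacts were deposited for 12 captured windows of 50 kb. Far cis contacts are its contacts with windows of 50 kb on the same chromosome that lie more than 5 Mb away. All such windows on chromosome 16 were taken, by position and with no measured value, out of 16686 over the 6 captured regions of the study. Of them 720 lay on the short (p) arm, up to 36 Mb, and 677 on the long (q) arm, from 46 Mb, on either side of the captured region. The 200 windows around the centromere, between 36 and 46 Mb, held no contact in any library.

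BT483 is a line from a primary invasive ductal carcinoma of the breast and was lysed with trypsin. SUM44 was established from breast cancer cells of a pleural effusion, was grown in medium without phenol red and with estradiol, and was lysed with a dounce. GM06990 is a lymphoblastoid line of B lymphocytes, also lysed with a dounce, and serves here as the line set against both breast lines. Each line had 2 replicates in separate count columns (n = 2 per line), and nothing in the labels says that these were separate cultures, so the p-values measure the spread between these libraries, which may be technical. The cell line, its lysis and its medium cannot be told apart. The files hold contact counts and no expression, so the labelled cell types were not checked against marker genes.

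As background, a locus contacts its own chromosome more often than others, and the frequency falls with distance along the DNA. At the scale of megabases the contacts of a locus are not even: chromosomes fold into gene-rich, active stretches and gene-poor, inactive stretches that each tend to contact their own kind, and which stretches are active differs between cell types. The captured region lies in a gene-poor stretch between ZFHX3, a transcription factor gene, and PSMD7, a proteasome subunit gene. The long arm of chromosome 16 also carries genes of cadherins, the cell adhesion proteins, among them CDH8 and CDH11 in its middle part and CDH13 towards its telomere, and its loss is a frequent change in breast cancers. No gene was assigned to a window and no sequence is shown, because the counts use GRCh37 and the annotation at hand another build, GRCh38.p14. The files hold no measure of DNA copy number.

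Far cis contacts of the region numbered 84753 and 119823 in the BT483 replicates, 80917 and 71180 in those of SUM44, and 65122 and 76110 in those of GM06990. They made up 16.3% and 14.9% of the contacts that left the captured region in BT483, 18.9% and 17.7% in SUM44, and 13.8% and 9.42% in GM06990. Contacts with other chromosomes (trans) made up 65.8% and 61.4% in BT483, 45.3% and 47.9% in SUM44, and 65.4% and 79.6% in GM06990, where the replicates differed most. The median window held 16 to 38 contacts per library, and the highest held 761. At least 1 contact over the 6 columns was found in 1356 windows, called mappable here, of which 690 lay on the p arm, 443 on the centromeric side of the q arm and 223 on its telomeric side. The p arm windows lay 38.3 to 73.5 Mb from the region, those of the q arm 5.00 to 27.1 Mb away on the centromeric side and 4.97 to 16.1 Mb away on the telomeric side. Levels are given as contacts per 10000 far cis contacts of the region. They add up to a fixed total in each library, so a higher level in one stretch goes with a lower level elsewhere.

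The replicates of BT483 differed more than those of the other lines. Over the 69 bins of 1 Mb with at least 10 mappable windows, their levels correlated at r = 0.966 on the log scale, against r = 0.997 for the SUM44 replicates and r = 0.995 for those of GM06990. In 60 of these 69 bins BT483 replicate 2 lay between BT483 replicate 1 and the mean of GM06990, and in 39 between BT483 replicate 1 and the mean of SUM44. Its profile was nearer to those of the SUM44 replicates (r = 0.949 with each) than to those of GM06990 (r = 0.828 and 0.810). The bins share their libraries and the fall of contacts with distance, so these values are descriptions.

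BT483 made a larger share of its far cis contacts with the p arm than the other lines did, and a smaller share with the telomeric side of the q arm. The p arm held 34.1% (exact Clopper-Pearson 95% interval 33.8 to 34.5) and 28.5% (28.3 to 28.8) of the far cis contacts in the BT483 replicates, 24.4% (24.1 to 24.7) and 24.8% (24.5 to 25.1) in those of SUM44, and 23.0% (22.7 to 23.3) and 26.1% (25.8 to 26.4) in those of GM06990. These intervals cover counting error only and leave out the spread between replicates. Pairs were amplified without molecular identifiers, so copies of a pair left in the counts would make the intervals too narrow. Both BT483 values were above all 4 others, and the SUM44 values lay between those of GM06990. The means were 31.3% ± 3.98 in BT483, 24.6% ± 0.269 in SUM44 and 24.6% ± 2.23 in GM06990 (SD, n = 2 each). BT483 exceeded GM06990 by 6.78 percentage points and SUM44 by 6.75 points, both with p = 0.333 in a two-sided exact permutation test, which is the smallest p that 2 against 2 can give. The difference of SUM44 from GM06990 was 0.0238 points (exact permutation p = 1), less than the spread between the GM06990 replicates.

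On the q arm the telomeric side set the lines apart. It held 14.6% and 17.9% of far cis contacts in the BT483 replicates, 20.2% and 19.9% in those of SUM44, and 23.5% and 22.8% in those of GM06990, with no overlap between any of the lines. The centromeric side held 51.2% and 53.5% in BT483, 55.4% and 55.3% in SUM44, and 53.5% and 51.1% in GM06990, where BT483 and GM06990 overlapped. Per mappable window, the p arm averaged 4.54 ± 0.577 contacts per 10000 in BT483, 3.56 ± 0.0390 in SUM44 and 3.56 ± 0.324 in GM06990. The telomeric side of the q arm averaged 7.30 ± 1.05 in BT483, 9.00 ± 0.0762 in SUM44 and 10.4 ± 0.222 in GM06990 (SD, n = 2 each). The log2 ratio of the p arm level to the q arm level was -1.19 ± 0.27 in BT483, -1.67 ± 0.02 in SUM44 and -1.67 ± 0.17 in GM06990. Every line thus made fewer contacts per window with the p arm, the farther of the 2 arms.

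**Figure D1:**
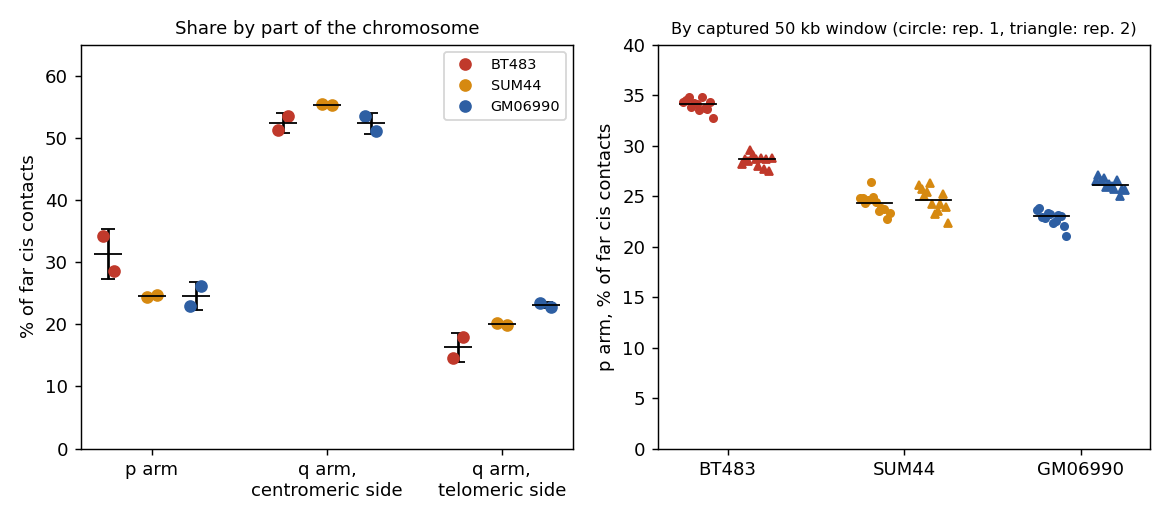
Left, share of far cis contacts (percent) on the p arm and on both sides of the q arm for BT483, SUM44 and GM06990; points are replicates, bars the mean and its SD (n = 2). Right, p arm share for each of the 12 captured 50 kb windows, replicate 1 as circles and replicate 2 as triangles, with the median as a line. All BT483 points of the right panel lie above those of SUM44 and GM06990.

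The p arm share was also higher in BT483 when each captured window was taken alone, as the plot by captured window shows. Over the 12 windows it ran from 32.7% to 34.8% (median 34.2%) in BT483 replicate 1 and from 27.5% to 29.5% (median 28.7%) in BT483 replicate 2. In the SUM44 replicates the medians were 24.3% and 24.6%, and in those of GM06990 23.0% and 26.1%, with 27.1% as the highest value of any window. Both BT483 replicates were above both GM06990 replicates in 12 of 12 captured windows, and above both SUM44 replicates in 12 of 12. SUM44 exceeded GM06990 in both replicates in 1 of 12. The captured windows share their libraries and are not replicates of a line.

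The level of contact with windows of other chromosomes differed between the libraries. How much of the far cis contacts is of that kind was not measured. The mean window of another chromosome held 6.25 and 9.00 contacts with the region in the BT483 replicates, 3.53 and 3.5 in those of SUM44, and 5.62 and 11.7 in those of GM06990. The mean p arm window held 6.71 and 5.50 times that level in BT483, 8.10 and 7.30 times in SUM44, and 3.86 and 2.46 times in GM06990. With the mean trans window subtracted from each mappable window, a step chosen after the data were seen, the p arm share was 32.3% and 26.0% in BT483, 22.7% and 22.9% in SUM44, and 19.3% and 19.6% in GM06990. The lines then no longer overlapped, and SUM44 exceeded GM06990 by 3.38 percentage points. In each library 4 to 7 of the 35 p arm bins lay below the mean trans window, so the step takes more from these bins than they held. BT483 exceeded GM06990 by 9.70 points.

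The far cis profile rose and fell in stretches of several megabases, at places that the lines shared in part. Over the 69 bins the log levels of BT483 and SUM44 libraries correlated at r = 0.880 to 0.949, those of BT483 and GM06990 at 0.674 to 0.828, and those of SUM44 and GM06990 at 0.895 to 0.912. The p arm bin from 1000001 to 2000000, near the telomere, held 6.61 and 11.5 contacts per 10000 in BT483, 7.54 and 6.18 in SUM44, and 17.0 and 28.9 in GM06990. The bin from 7000001 to 8000000 held 238 and 154 in BT483, 137 and 133 in SUM44, and 119 and 122 in GM06990. In each line the bins from 5 to 10 Mb stood above the bins next to them. Further p arm peaks of all lines stood at 13 Mb, at 17 Mb and from 24 to 27 Mb, with a trough from 29 to 30 Mb. The bins from 19 to 21 Mb held 19.6 to 35.8 in BT483 and 25.1 to 34.0 in SUM44, against 75.4 to 92.0 in GM06990, where they formed a further peak. In the trough from 29 Mb the level was 7.08 and 9.18 in BT483, 7.54 and 8.57 in SUM44, and 11.1 and 20.1 in GM06990. Of 35 p arm bins, 7 and 4 in the BT483 replicates, 4 and 4 in those of SUM44, and 4 and 5 in those of GM06990 held fewer contacts per window than the mean trans window.

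**Figure D2:**
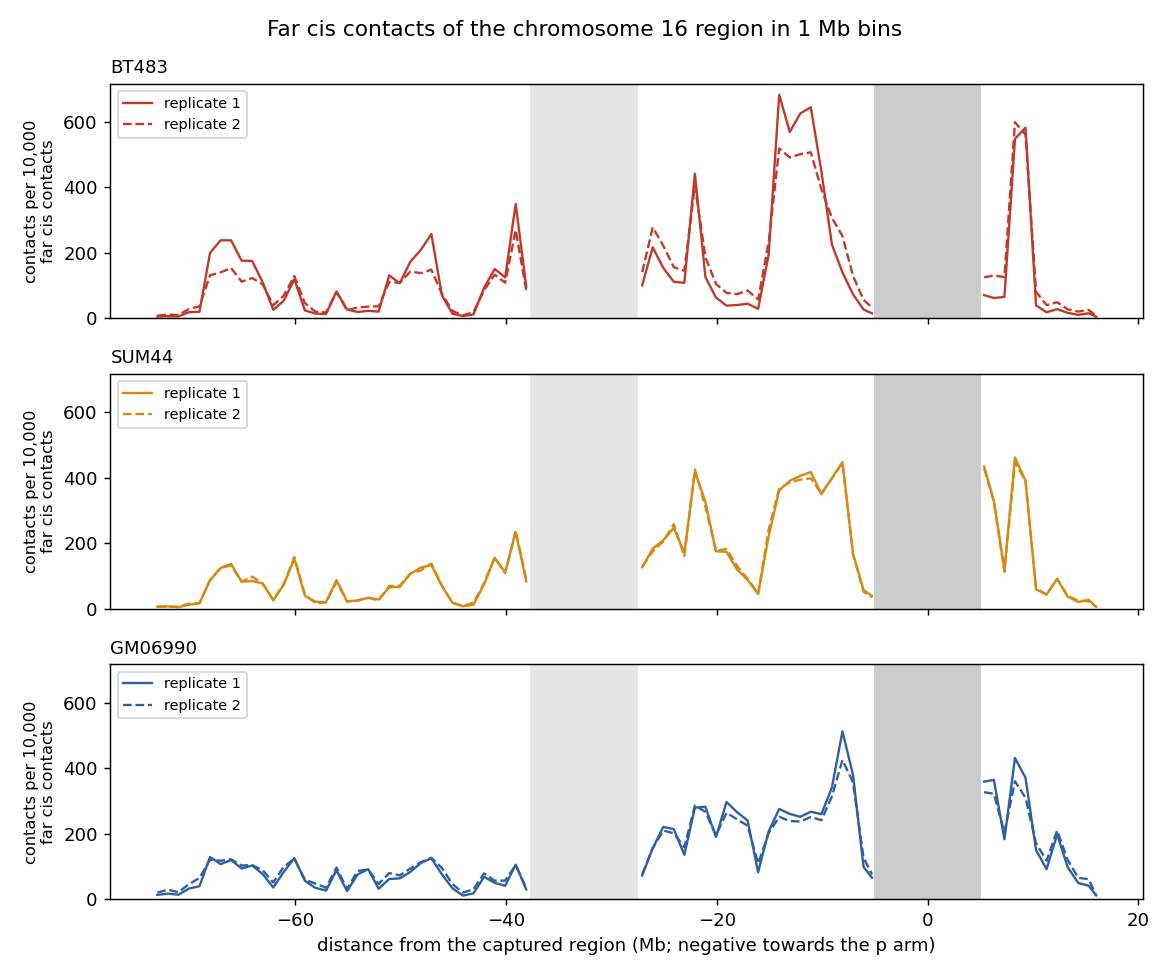
Far cis level (contacts per 10000 far cis contacts in each 1 Mb bin) against the distance from the captured region in Mb, with the p arm on the left, for BT483, SUM44 and GM06990; solid and dashed lines are the replicates. The light band marks the windows around the centromere and the dark band the captured region with the 5 Mb on either side. The lines share some peaks and differ in others, and in the bins 9.60 to 13.6 Mb away on the centromeric side both BT483 replicates lie above every other library.

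Contacts were concentrated in fewer windows in the breast lines. Taking the 136 mappable windows with the most contacts in the other replicate, these top 10% of windows held 43.7% and 38.2% of far cis contacts in BT483, 36.8% and 36.5% in SUM44, and 30.0% and 26.1% in GM06990. The lower 50% of windows held 9.07% and 13.4% in BT483, 11.8% and 11.8% in SUM44, and 17.3% and 21.3% in GM06990. Both breast lines thus stood apart from GM06990 in both measures, which were chosen after the data were seen and were not tested. In GM06990 the replicate with the larger trans share had the lower concentration, in BT483 it had the higher, and the SUM44 replicates were close in concentration. The part of the trans share in the result was not tested.

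Windows with at least 2 times the mean mappable window in both replicates numbered 156 in BT483, 202 in SUM44 and 157 in GM06990. Of these, 17 lay on the p arm in BT483, 12 in SUM44 and 1 in GM06990. Windows high in every line numbered 60, which was 38.5% of those of BT483, 29.7% of those of SUM44 and 38.2% of those of GM06990. A further 65, 10 of them on the p arm, were high in both breast lines and not in GM06990. The 41 that were high in GM06990 and in neither breast line all lay on the q arm, as did 156 of all 157 high windows of GM06990. In BT483 the longest run of high windows reached from 58850001 to 64400000 on the q arm and held 32.1% and 26.5% of its far cis contacts within 5.55 Mb, where 92 of 111 windows were high. In GM06990 the longest run reached from 63950001 to 66650000, nearer to the captured region, and held 11.8% and 10.4%.

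The highest single windows were partly shared. The p arm window from 32500001 to 32550000 ranked highest in every line, at 42.2 and 46.9 contacts per 10000 in BT483, 57.7 and 55.2 in SUM44, and 16 and 18.7 in GM06990. It lies on the flank of the centromere, as do the 3 windows that follow it, which are the same 3 in every line. The window at rank 5 also lies there in BT483 and SUM44, while that of GM06990 starts at 26350001. On the q arm the lines had different highest windows. That of BT483, from 83150001 to 83200000, held 66.9 and 63.5 in BT483, 44.0 and 41.6 in SUM44, and 31.3 and 22.6 in GM06990. That of SUM44, from 79550001 to 79600000, held 5.90 and 13.0 in BT483 and 45.0 and 46.4 in SUM44, against 33.8 and 23.4 in GM06990. That of GM06990, from 65900001 to 65950000, held 5.90 and 17.9 in BT483 and 20.8 and 23.9 in SUM44, against 44.8 and 31.5 in GM06990.

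A straight line fitted to the p arm levels rose towards the centromere in every line, more steeply in the breast lines than in GM06990. The p arm profile had several peaks and troughs, so this slope does not describe a steady rise from bin to bin. The slope of log10 level on log10 distance over 35 p arm bins was -1.62 ± 0.235 in BT483, -1.99 ± 0.00886 in SUM44 and -0.342 ± 0.0497 in GM06990 (SD, n = 2 each). On the centromeric side of the q arm, 23 bins gave 0.250 ± 0.0706 in BT483, 0.222 ± 0.0312 in SUM44 and -0.0913 ± 0.0132 in GM06990. The fitted line there thus did not fall with distance in the breast lines. On the telomeric side, 11 bins gave -2.29 ± 0.0160 in BT483, -2.96 ± 0.0286 in SUM44 and -1.83 ± 0.308 in GM06990. These slopes are descriptions and were not tested.

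BT483 and GM06990 differed over most of the tested chromosome, with long stretches of the q arm lower in BT483 and both flanks of the centromere, the middle of the q arm and several stretches of the p arm higher. Of 1127 windows of chromosome 16 with a mean of at least 10 contacts, 653 differed (57.9%) by edgeR's quasi-likelihood test at an adjusted p under 0.05, against a background of 22.9% over the 11419 windows tested in the 6 regions. Of the p arm windows 111 of 488 were higher and 66 lower in BT483, and on the q arm 138 of 639 were higher and 338 lower. The background was 10.1% for higher and 12.8% for lower. The median log2 change was 0.15 on the p arm and -0.93 on the q arm, against 0.02 over the windows of all regions. The sign on the p arm depends on which windows are tested: its median was -0.18 over all 690 mappable p arm windows, -0.01 when far cis started at 10 Mb, 0.61 over the 278 with a mean of at least 30 contacts and -0.15 over the bins of 1 Mb, while the q arm median stayed negative, at -1.01 to -0.64. The count ran from 384 without GM06990 replicate 2 and 459 without GM06990 replicate 1 to 790 without BT483 replicate 2. Scaled to the trans total of the region, 304 windows differed, with 112 higher and 4 lower on the p arm and 89 higher and 99 lower on the q arm. With factors from trimmed means (TMM), the split was 190 higher and 35 lower on the p arm and 163 higher and 276 lower on the q arm. The median log2 change of all chromosome 16 windows was -0.41 with the far cis total, 0.20 with the trans total and -0.04 with TMM.

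Of the 653 windows called, 634 fell into 28 blocks of at least 5 windows called in the same direction, each within 250 kb of the next. With 57.9% of the windows called and such gaps allowed, many calls would join blocks in any order. The share expected without clustering was not computed. The block with the most windows was higher in BT483 and reached from 58850001 to 63750000, 4.90 Mb of the middle q arm. It held 3001 and 2420.5 contacts per 10000 in BT483, 1928 and 1899 in SUM44, and 1304 and 1203 in GM06990, and 95 of its 98 tested windows were called, with a median log2 change of 1.13. The lines do not overlap in this block, and SUM44 stands between the other 2. Choosing blocks by the contrast of BT483 and GM06990 favours such a place of SUM44. The block from 82650001 to 83500000, on the telomeric side, was higher too, at 875 and 730.2 in BT483, 517 and 519 in SUM44, and 379.9 and 307 in GM06990, with 17 of 17 windows called.

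The 4 q arm blocks with the next most windows were lower in BT483. Towards the telomere, from 84000001 to 88750000, the level was 112 and 215 in BT483, 248 and 258 in SUM44, and 580.3 and 676 in GM06990, with 82 of 86 windows called and a median log2 change of -2.04. From 53350001 to 57350000 it was 164 and 312 in BT483, 501 and 525 in SUM44, and 959 and 890.2 in GM06990 (78 of 80 windows, median -1.88). From 64550001 to 68600000, the stretch next to the excluded 5 Mb on the centromeric side, it was 335 and 594 in BT483, 891 and 866 in SUM44, and 1217 and 1141 in GM06990 (74 of 80 windows, median -1.43). In these 3 blocks SUM44 was again between BT483 and GM06990. In the last, from 79150001 to 81850000 on the other side of the captured region, it was not: the level was 176 and 345 in BT483, 855 and 842 in SUM44, and 876 and 818 in GM06990, and 54 of 54 windows were lower in BT483 than in GM06990.

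The p arm block with the most windows, from 33400001 to 35300000 on the flank of the centromere, was higher in BT483, at 560.3 and 459 contacts per 10000 in BT483, 423 and 430.3 in SUM44, and 174 and 191 in GM06990 (32 of 32 windows, median log2 change 1.42). Both breast lines lie above GM06990 there, and BT483 replicate 2 lies near SUM44. The block from 23650001 to 24500000 held 205 and 144 in BT483, 112 and 111 in SUM44, and 75.6 and 80.7 in GM06990 (17 of 17 windows, median 1.15). From 19150001 to 20950000 the p arm was lower in BT483, at 39.2 and 64.8, and in SUM44, at 56.1 and 56.6, against 162 and 168 in GM06990 (30 of 32 windows, median -1.65). In all, 10 blocks of the p arm were higher over 7.15 Mb and 5 were lower over 4.2 Mb. On the q arm 5 were higher over 7.45 Mb and 8 were lower over 18.7 Mb.

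**Figure D3:**
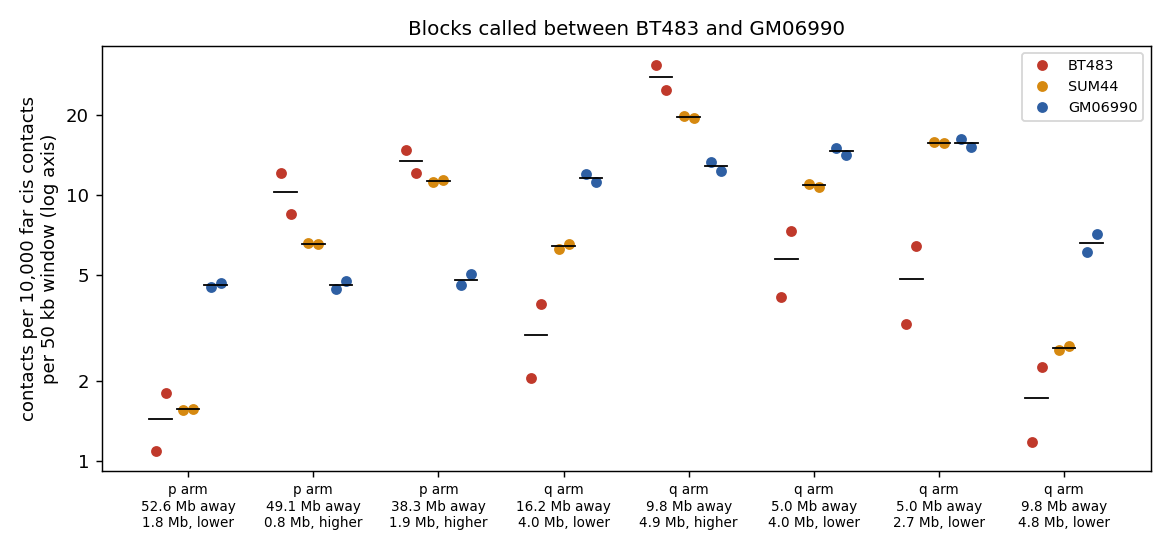
Level per 50 kb window (contacts per 10000 far cis contacts, log axis) in the 3 p arm blocks and the 5 q arm blocks with the most windows called between BT483 and GM06990, in order along the chromosome; points are replicates, bars the means of BT483, SUM44 and GM06990. The blocks were chosen by this contrast, so the distance between BT483 and GM06990 follows from the choice, which also favours a place of SUM44 between them. The mean of SUM44 lies between those of the other lines in 7 of the 8 blocks, against 43 of all 69 bins of 1 Mb and 16 of the 35 on the p arm. BT483 replicate 2 lies between BT483 replicate 1 and the mean of GM06990 in 8 of 8 blocks, against 60 of 69 bins.

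In bins of 1 Mb, 53 of 71 differed between BT483 and GM06990 (74.6%, against a background of 34.2% over 801 bins). Of the p arm bins 13 were higher and 9 lower, and of the q arm bins 10 were higher and 21 lower, against a background of 18.1% for higher and 16.1% for lower. The bin that fell most reached from 86000001 to 87000000 and held 28.3 and 49.3 contacts per 10000 in BT483, 91.0 and 91.7 in SUM44, and 198 and 209.6 in GM06990. Its log2 change was -2.38 ± 0.22 (SE, edgeR adjusted p = 0.000199). The bin from 87000001 to 88000000 changed by -2.28 on the log2 scale, and those from 54000001 and 55000001 by -2.25 and -2.14. The bin that rose most, from 34000001 to 35000000 on the p arm, held 349 and 269 in BT483, 234 and 238 in SUM44, and 106 and 104 in GM06990, with a log2 change of 1.56 ± 0.15 (edgeR adjusted p = 0.000279). Next to it, the bins from 32000001 and 33000001 rose by 1.41 and 1.25, and that from 35000001, with 6 mappable windows, by 1.51. In the middle of the q arm the bin from 61000001 to 62000000 rose by 1.20 ± 0.16 (edgeR adjusted p = 0.000937). Without GM06990 replicate 2 the count was 27 and without GM06990 replicate 1 it was 29.

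Among the single windows called, the largest falls on the q arm were larger than any on the p arm. The arms are not compared alike here: the filter kept 488 of 690 mappable windows on the p arm and 639 of 666 on the q arm, and p arm levels were lower. The window from 87350001 to 87400000 held 0.590 and 0.167 contacts per 10000 in BT483 (5 and 2 contacts), 1.48 and 0.843 in SUM44, and 3.22 and 5.26 in GM06990, a log2 change of -3.58 ± 0.53 (edgeR adjusted p = 4.99e-05). This window passed the filter through the other lines. The window from 55450001 to 55500000 fell by 3.37 on the log2 scale and that from 86700001 to 86750000 by 3.0. The p arm window that fell most, from 20100001 to 20150000, changed by -2.26 ± 0.37. The window that rose most on the p arm, from 34500001 to 34550000, held 40.5 and 27.6 in BT483, 18.5 and 17.0 in SUM44, and 9.37 and 7.75 in GM06990, a log2 change of 1.99 ± 0.24 (edgeR adjusted p = 6.36e-06). On the q arm the window that rose most, from 62800001 to 62850000, changed by 1.8 ± 0.27.

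SUM44 and GM06990 differed on chromosome 16 about as often as over all regions. The edgeR test called 430 of 1127 windows (38.2%), against a background of 35.7%, and 37 of 71 bins (52.1%), against a background of 52.3%. On the p arm 44 windows were higher and 85 lower in SUM44, and on the q arm 85 were higher and 216 lower, against a background of 14.0% for higher and 21.7% for lower. The median log2 change was -0.21 on the p arm and -0.13 on the q arm, against -0.14 over the windows of all regions, and with a mean of at least 30 contacts both turned, to 0.12 on the p arm and 0.07 on the q arm. The count was 166 and 276 without GM06990 replicate 2 or 1, and 178 and 194 without SUM44 replicate 1 or 2, and DESeq2 called 207. The trans total as scale turned the balance, with 209 windows higher and 0 lower on the p arm and 292 higher and 0 lower on the q arm, and the median of all chromosome 16 windows was -0.21 with the far cis total and 1.10 with the trans total. With TMM the split was 53 higher and 59 lower on the p arm and 128 higher and 169 lower on the q arm. Leaving out either BT483 replicate, which is not in this comparison, raised the count.

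The blocks between SUM44 and GM06990 numbered 15 and held 376 windows. From 83800001 to 88700000 the level was 268 and 278 contacts per 10000 in SUM44, against 623 and 718 in GM06990 (83 of 89 windows, median log2 change -1.40). From 53900001 to 58150000 it was 451 and 475 in SUM44, against 923 and 882 in GM06990 (65 of 83 windows, median -1.0). From 65750001 to 68600000 it was 341 and 327 in SUM44, against 694 and 679.8 in GM06990 (43 of 56 windows, median -1.05). The middle q arm block, from 60050001 to 62850000, was higher, at 1152 and 1115 in SUM44, against 731 and 677 in GM06990 (42 of 56 windows, median 0.70). The comparisons of both breast lines share the GM06990 libraries, so a like change in both is not independent. Scaled to the trans total, the medians of the second and the third of these blocks turned to 0.26 and 0.22.

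On the p arm SUM44 was higher on the flank of the centromere and lower near the telomere. From 34250001 to 35300000 the level was 305 and 314 contacts per 10000 in SUM44, against 127 and 129.7 in GM06990, with 21 of 21 windows called and a median log2 change of 1.18. From 3250001 to 5100000 it was 30.0 and 33.7 in SUM44, against 74.6 and 109 in GM06990 (19 of 24 windows, median -1.47), and from 18800001 to 20450000 it was 43.1 and 45.0, against 142 and 150.2 (27 of 28 windows, median -1.76). The bin from 1000001 to 2000000 changed most among those lower in SUM44, by -1.74 ± 0.37 (edgeR adjusted p = 0.00528), and the call was lost without GM06990 replicate 2. The bin from 32000001 to 33000000 rose most, at 156 and 156 in SUM44, against 50.1 and 56.8 in GM06990, a log2 change of 1.54 ± 0.13 (edgeR adjusted p = 0.000109). The p arm share of SUM44 was like that of GM06990 while these stretches differed, and with arm limits of 30 and 51 Mb, which leave out the flanks of the centromere, the share of SUM44 minus that of GM06990 was -2.72 percentage points.

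**Figure D4:**
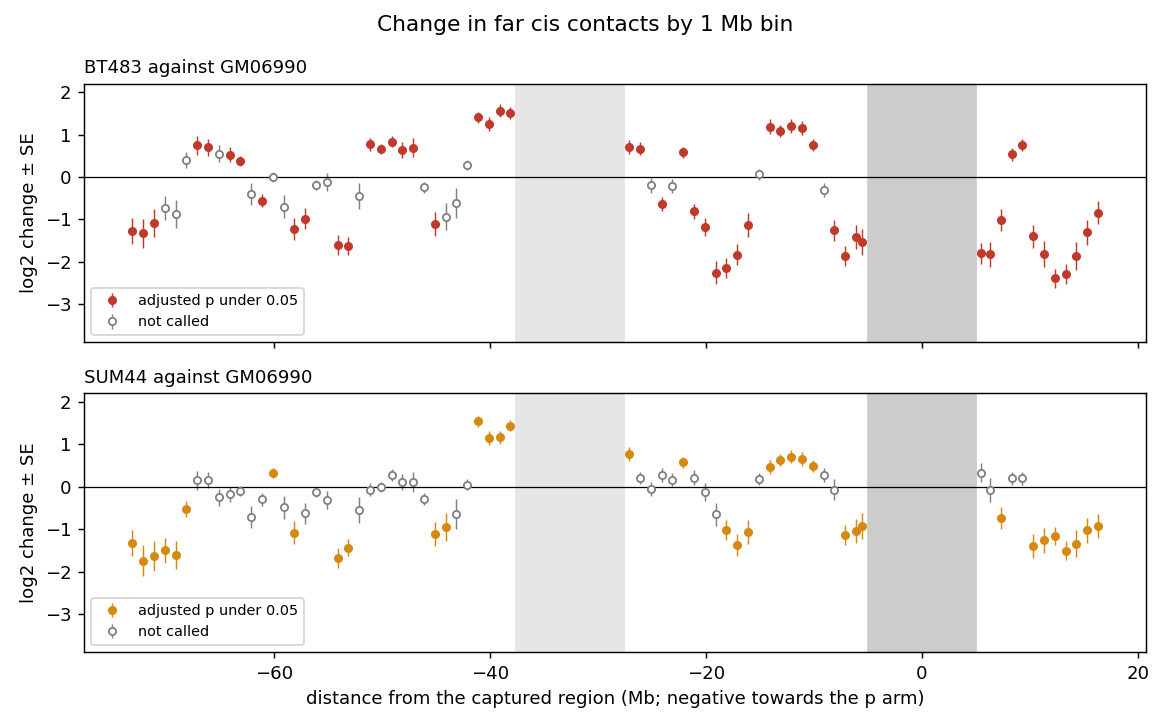
Log2 change in far cis level with its SE for each 1 Mb bin of chromosome 16 against the distance from the captured region in Mb, for BT483 against GM06990 (top) and SUM44 against GM06990 (bottom); filled points have an edgeR adjusted p under 0.05, open points do not. The p arm is on the left, the light band marks the centromere and the dark band the captured region with 5 Mb on either side. Bins on the p arm flank of the centromere and those 9.60 to 13.6 Mb away on the centromeric side are higher in both breast lines, and those from 9.82 Mb on the telomeric side are lower in both; the panels share the GM06990 libraries.

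Between the breast lines most of the windows called lay on the q arm, more of them lower than higher in BT483. The edgeR test called 328 of 1127 windows (29.1%), against a background of 24.9%, and 28 of 71 bins (39.4%), against a background of 47.9%. The p arm had 74 windows higher and 5 lower in BT483 and the q arm 64 higher and 185 lower, against a background of 14.9% for higher and 9.97% for lower. The median log2 change was 0.33 on the p arm and -0.35 on the q arm. Without SUM44 replicate 1 or 2 the count was 112 and 119, without BT483 replicate 2 it was 545, and DESeq2 called 152. With the trans total as scale 0 windows were higher and 36 lower on the p arm and 0 higher and 270 lower on the q arm, and with TMM 127 were higher and 2 lower on the p arm and 87 higher and 143 lower on the q arm.

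The largest called difference between the breast lines in a 1 Mb bin lay just beyond the excluded 5 Mb on the telomeric side. The bin from 79150001 to 80000000 held 71 and 125 contacts per 10000 in BT483, against 434 and 428 in SUM44, and 359 and 327 in GM06990. The log2 change of BT483 against SUM44 was -2.13 ± 0.24 (edgeR adjusted p = 0.000672) and that of BT483 against GM06990 was -1.8 ± 0.24 (edgeR adjusted p = 0.000981). That of SUM44 against GM06990 was 0.33 ± 0.23 and was not called. The whole block from 79150001 to 81150000 held 139 and 267 in BT483, against 778 and 767 in SUM44 (39 of 40 windows, median -1.94). From 52100001 to 56200000 the level was 270.0 and 454 in BT483, against 813 and 818 in SUM44 (68 of 82 windows, median -1.13), and from 64100001 to 66300000 it was 362 and 571, against 879.5 and 870.5 (36 of 44 windows, median -0.81). The block from 59050001 to 60450000 was higher in BT483, at 909.8 and 698, against 502 and 496 in SUM44 (23 of 28 windows, median 0.72). In each of these blocks BT483 replicate 2 lay nearer to SUM44 than BT483 replicate 1 did.

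On the p arm BT483 was higher than SUM44 over 7 blocks and 5.20 Mb in all, and no block was lower. The one with the most windows, from 5300001 to 6650000, held 341 and 209 contacts per 10000 in BT483, against 161 and 160.2 in SUM44, and 176 and 179 in GM06990 (15 of 27 windows, median log2 change 0.84). From 22600001 to 23200000 the level was 144 and 117 in BT483, against 61.1 and 67.2 in SUM44 (11 of 12 windows, median 1.01). The bin from 5000001 to 6000000 rose by 0.92 ± 0.19 (edgeR adjusted p = 0.00578) and that from 22000001 to 23000000 by 0.84 ± 0.15 (edgeR adjusted p = 0.00342). In both bins the BT483 replicates were above all other libraries.

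Seen from the 5 other captured regions, chromosome 16 gave no like difference between BT483 and GM06990 that both BT483 replicates shared. Of their trans contacts with the same windows, the p arm held 44.8% ± 3.83 in BT483, 42.0% ± 0.233 in SUM44 and 45.5% ± 0.10 in GM06990 (SD, n = 2 each). The BT483 replicates, at 47.5% and 42.1%, lay on either side of those of GM06990, at 45.6% and 45.5%. Replicate 1 of BT483 was the higher, as in its far cis shares of 34.1% and 28.5%. Over the 8 plotted blocks called between BT483 and GM06990, the trans levels of BT483 over GM06990 ran from -0.38 to 0.21 on the log2 scale, and the replicates of the lines overlapped in each. The far cis levels of the same blocks ran from -1.96 to 1.48. In SUM44 the bins from 53 to 56 Mb took 29.1% and 29.3% of the trans contacts with chromosome 16, while they took 5.07% and 7.20% in BT483 and 5.67% and 5.75% in GM06990. From each of the 5 regions this share lay between 23.2% and 34.0% in SUM44. The same bins held 4.69% and 4.91% of the far cis contacts in SUM44, against 7.52% and 7.02% in GM06990. Without them, a step chosen after the data were seen, the p arm held 47.7% ± 3.31 of these trans contacts in BT483, 59.3% ± 0.259 in SUM44 and 48.3% ± 0.0774 in GM06990.

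The trans profile along chromosome 16 resembled the far cis profile in GM06990 more evenly than in the breast lines. Over 69 bins the log levels seen from each of the 5 other regions were set against the far cis levels of the same line. In BT483 r ran from -0.152 for the region on chromosome 2 to 0.807 for that on chromosome 3. In SUM44 it ran from -0.135 for the region on chromosome 2 to 0.513 for that on chromosome 18, and in GM06990 from 0.759 to 0.825. These are descriptions over bins of the same libraries, with medians from 42 to 459 contacts per bin.

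At the other captured regions the arm that does not hold the region was also contacted less per window than its own arm, but the lines ranked differently. The log2 ratio of the other arm to the own arm was higher in BT483 than in GM06990 by 0.49 at the chromosome 16 region and by 0.47 at the chromosome 2 region (exact permutation p = 0.333 in both). It was lower in BT483 by 0.54 at the chromosome 8 region and by 0.47 at the chromosome 18 region, with the same p, and at the chromosome 3 and 9 regions the lines overlapped. The higher ratio in BT483 was thus found at 2 of the 6 regions. SUM44 had a lower ratio than GM06990 at the regions on chromosomes 3, 8, 9 and 18, by 0.41 to 0.64, and overlapped with it at those on chromosomes 2 and 16.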

How the data were processed

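The authors deposited raw counts of ligated read pairs between captured windows of 50 kb and windows of 50 kb on the same chromosome (far cis) and on others (trans), and per HindIII fragment nearby, in a column for each replicate. CASAVA 1.8 and GRCh37 (hg19) are named in the submitters' processing notes, and the aligner was not given in the sources used here. Window coordinates are the "other" values of the same deposited tables. Counts between captured regions were not used here.

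The counts were summed over the 12 captured windows and scaled, per replicate, to the region's far cis total. Arm shares were compared with an exact permutation test over replicates. Windows and bins of 1 Mb with a mean of at least 10 contacts were tested by the quasi-likelihood F test of edgeR 4.0.16 (R 4.3.3) with the log far cis total as offset, jointly over the 6 captured regions and 3 lines, with Benjamini-Hochberg adjustment over all and a threshold of 0.05. The test was checked on simulated counts drawn with a common spread and with changes in windows placed at random. That check does not cover a spread that differs between lines or changes in long runs. DESeq2 1.42.0, other scalings, filters and limits and each replicate left out served as alternatives. Correlations and slopes used log levels, the correlations after adding 1 contact.

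Named windows and bins were those with the largest called change per comparison, 3 each way per arm for windows and 5 each way for bins, with the 5 highest windows per arm and line and the 5 blocks with the most called windows per comparison. Further p arm blocks of each comparison and the block from 82650001 were named after their values were seen, as were the high windows and the concentration measure. The windows, arm limits and tests were chosen with earlier results of these data known. Tables were read with Python 3.11.15 and pandas 2.3.3.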

Additional observations from a re-analysis of the deposited data

Results flagged for a closer look

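In the windows and bins below, the change from GM06990 differed between the breast lines, by the edgeR test of BT483 against SUM44 (adjusted p under 0.05, n = 2 per line). They were chosen as the largest called changes of that comparison. Among bins of 1 Mb, BT483 was lower than SUM44 on the q arm, with a log2 change of -2.13 from 79150001, -1.75 from 80000001, -1.60 from 54000001, -1.22 from 86000001 and -1.19 from 65000001. It was higher on the p arm, by 0.92 from 5000001, 0.84 from 22000001, 0.79 from 8000001 and 0.70 from 9000001, and on the q arm by 0.72 from 59000001.

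Among windows of 50 kb on the q arm, BT483 was lower with a log2 change of -2.47 from 80150001, -2.45 from 79700001 and -2.33 from 79500001, where both BT483 replicates were also below both of GM06990. It was higher by 1.32 from 83900001, 1.26 from 83200001 and 1.11 from 59900001. From 83900001 the levels were 5.90 and 11.2 contacts per 10000 in BT483, against 3.46 and 3.51 in SUM44, with 9.06 and 8.41 in GM06990. On the p arm BT483 was lower with a change of -1.26 from 20500001, -1.10 from 27950001 and -0.92 from 27900001, and higher by 2.23 from 3350001, 1.81 from 5650001 and 1.76 from 5900001. The window from 3350001 held 11 and 22 contacts in BT483, against 3 and 2 in SUM44.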

How the results depend on the processing

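BT483 kept the higher p arm share under every alternative run, by 3.96 to 9.70 points over GM06990 and 3.94 to 9.57 over SUM44. These are differences between lines, and single replicates came close in some runs. With arm limits of 30 and 51 Mb the share was 25.7% in BT483 replicate 2 and 25.5% in GM06990 replicate 2. With far cis from 10 Mb it was 38.0% and 37.2% in the same replicates. Leaving out each replicate gave a difference of 3.96 to 9.59 points from GM06990 and 3.94 to 9.57 from SUM44, and on the log2 level scale 0.30 to 0.67 and 0.29 to 0.67. For SUM44 against GM06990 it gave -1.56 to 1.60 points and -0.12 to 0.13. With arm limits of 30 and 51 Mb that difference was -2.72 points and -0.22 on the log2 scale, and with the mean trans window subtracted it was 3.38 points; the cause was not tested.

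Leaving out each replicate gave 384 to 790 windows called for BT483 against GM06990, 166 to 586 for SUM44 against GM06990 and 112 to 545 for BT483 against SUM44. For bins it gave 27 to 65, 10 to 50 and 14 to 47 in the same order. In bins of BT483 against SUM44 the count was 18 without either GM06990 replicate. The test takes a spread per window that all lines share, in the main fit too, although the BT483 replicates differed more than the others. The highest counts for SUM44 against GM06990 came without a BT483 replicate, which is not in that comparison. A line left with 1 replicate is assumed to vary like the others. For BT483 against GM06990, scaling to the trans total gave 304 windows and 23 bins, and the threshold of 0.01 gave 32 bins. For SUM44 against GM06990 there were 282 windows with a mean of at least 30 contacts, 207 with DESeq2, and 243 windows and 23 bins at 0.01. For BT483 against SUM44 there were 209 windows and 18 bins from 10 Mb, 152 windows with DESeq2, and 160 windows and 13 bins at 0.01. Fewer windows enter at a higher mean or distance; the other causes were not tested. Scaled to the trans total, the median changes of the SUM44 blocks from 53900001 and 65750001 reversed to 0.26 and 0.22.

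With the replicate number as a block, 648, 420 and 317 windows and 57, 38 and 30 bins were called in the same order of comparisons, against 653, 430 and 328 and 53, 37 and 28 without it. The deviations of same-numbered replicates of different lines were weakly correlated (r = 0.0893, 0.0206 and 0.0171 over 1127 windows). A low correlation over the windows of this region cannot show how replicates were prepared. Whether same-numbered replicates shared a preparation was therefore not tested. Over all named windows, bins and blocks, 1204 alternative values stayed the same, 67 lost the call, 35 block medians moved and 2 reversed. For windows and bins the same means direction and side of the threshold. For blocks, which have no test, it means a median of the same sign that moved little against the range of its windows. The windows and bins were chosen as the largest called changes, which favours keeping the call. Items within 10 Mb have no value from 10 Mb, and 13 named windows have none at a mean of 30. Depth limits single windows, with a median of 16 to 38 contacts per library, more than bins.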
